A study of Mus musculus with 4 samples.

Results

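The 37 genes of the mouse mitochondrial genome were examined in RNA-seq counts from thigh skeletal muscle of wild-type male mice of the inbred strain C57BL/6J, with 3 libraries at the age of 28 months and 1 library at 18 months. Members were every counted unit whose joined gene IDs all carried a symbol starting with mt-. This gave 31 of the 40137 units in the tables and 43 of their 374286 bins, a bin being a piece of exon between annotated boundaries. The 37 genes comprise 13 mRNA genes, 2 rRNA genes and 22 tRNA genes. They fall into 26 units of 1 gene and 5 joined units that hold 11 overlapping genes. The sequencing was meant to check exon array results on alternative splicing, and those arrays were not used here. The mice carried no transgene or treatment per the labels, and the labels do not say whether each library came from a separate animal.

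Mitochondrial DNA is a small circle that is transcribed from both strands into long precursors. Most genes are read from the heavy-strand promoter, and mt-Nd6 together with a few tRNA genes is read from the light-strand promoter. tRNAs lie between many of the rRNAs and mRNAs, and cutting at the tRNAs frees the neighbouring RNAs, which are then polyadenylated, stabilised or degraded by proteins that the nucleus encodes. The mRNAs encode core subunits of respiratory complexes I, III, IV and V, on which oxidative muscle fibres depend for ATP. Below, heavy-strand genes are those annotated on the plus strand of the reference (12 mRNA, 2 rRNA and 14 tRNA genes) and light-strand genes those on the minus strand (1 mRNA gene and 8 tRNA genes).

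Some mitochondrial genes have near-identical copies in the nuclear genome, and these sequences are shown first because they bear on which counts can be told apart. Of the annotated transcripts, 7 pseudogenes on chromosome 1, all within chr1:24611535-24616197 on the minus strand (GRCm38, GENCODE M21), matched a mitochondrial gene at 99.7 to 100% identity over at least 100 bases. They copy mt-Co2 (Gm28661), mt-Atp6 (Gm10925), mt-Co3 (Gm28437), mt-Nd3 (Gm28438) and mt-Nd4l (Gm10222) over 99.0 to 99.9% of their length, mt-Nd4 (Gm28439) over 63.6% and mt-Co1 (Gm29216) over 31.3%. Over the aligned bases 5 of the 7 copies had no mismatch. The other two had 1 each, A1066T in mt-Co1 and T3C in mt-Nd3, where positions count from 1 at the gene's 5′ end and the mitochondrial base comes first. The windows below show these mismatches, with the differing base in capitals.
mt-Co1, chrM:6390-6423: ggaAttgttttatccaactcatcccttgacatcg
Gm29216, chr1:24616155-24616188: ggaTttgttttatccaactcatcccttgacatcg
mt-Nd3, chrM:9459-9491: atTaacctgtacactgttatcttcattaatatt
Gm28438, chr1:24613087-24613119: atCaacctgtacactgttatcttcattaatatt

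The annotated copy of mt-Nd4 stops inside the gene. The window below is shown because reads past this point do not match Gm28439, and in it lower-case bases are shared with Gm28439 and capitals lie past its annotated end.
mt-Nd4, chrM:11003-11082: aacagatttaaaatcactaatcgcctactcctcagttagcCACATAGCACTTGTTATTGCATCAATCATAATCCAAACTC

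Genes also overlap each other in the joined units, and these short stretches form bins of their own. The start codon of mt-Atp6, in capitals below, lies within mt-Atp8, and the 2 genes share 43 bases. mt-Nd4l and mt-Nd4 share the 7 bases in capitals. The last 2 bases of mt-Nd1, in capitals, are the first 2 of mt-Ti.
mt-Atp8 and mt-Atp6 overlap, chrM:7927-7969: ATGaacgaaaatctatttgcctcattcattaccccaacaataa
mt-Nd4l and mt-Nd4 junction, chrM:10137-10203: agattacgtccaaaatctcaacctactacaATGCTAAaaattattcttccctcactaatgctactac
mt-Nd1 end, chrM:3668-3707: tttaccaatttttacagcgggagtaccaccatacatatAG

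The libraries held 67279205 to 76163175 counts at 28 months, against 65780464 counts at 18 months. The second 28-month library differed from the first and the third and lay closer to the 18-month library in the summed level of 8 fast-fibre genes. That sum was 92303 CPM in the second (each count divided by the TMM-scaled library total in units of 1e6 counts), against 166291 and 172066 CPM in the first and the third, and 100847 CPM in the 18-month library. Not every gene of the sum had this order: in Myh4 and Tnni2 the 18-month library lay closer to the first and the third. The scaling factor, by the trimmed mean of M-values (TMM), was 1.28 in the second 28-month library, 0.877 and 0.897 in the first and the third and 0.99 at 18 months. The extraction text in the labels describes epidermal cells, whereas the tissue label is skeletal muscle. Of 6 keratinocyte markers, Krt5, Krt15 and Dsg3 had 0 counts in all 4 libraries, Krt14 and Krt1 had counts in 1 library each, below 0.1 CPM, and Krt10 had 0.928 to 1.12 CPM at 28 months and 0.845 CPM at 18 months. The fast-fibre gene Myh4 had 26324, 18075 and 35555 CPM at 28 months, against 27716 CPM at 18 months.

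Mitochondrial transcripts took a smaller share of the 28-month libraries. They made up 5.98, 5.01 and 5.61% of gene counts at 28 months, against 13.97% at 18 months, with an exact 95% interval of 13.96 to 13.98% that covers counting error only. The 28-month mean was 5.53% ± 0.486 (SD, n = 3), or 0.396 times the 18-month share, and the groups did not overlap. With 3 libraries against 1, the exact two-sided permutation test cannot give a p below 0.5, which is what it gave here. In bulk tissue, fewer cells of a type and less RNA per cell cannot be told apart. Summed levels of 7 oxidative and slow fibre genes were 2709, 1927 and 2588 CPM at 28 months, against 3170 CPM at 18 months, and the part of fibre type in the mitochondrial share was not tested. Most of that sum is myoglobin (Mb), the oxygen-binding protein of oxidative fibres, with 1594, 1069 and 1204 CPM at 28 months, against 2250 CPM at 18 months. The other 6 genes summed to 1115, 858 and 1384 CPM in the 28-month libraries and to 920.1 CPM in the 18-month library, which overlap. Of the 7 genes, Myh2, Myl2 and Myl3 had a positive log2 difference and Myh7, Tnni1, Tnnt1 and Mb a negative one. Myl2, a slow myosin light chain gene, was above the 18-month library in every 28-month library (231, 337 and 317 CPM, against 180 CPM at 18 months). Mb was below it in every one. Over all tested units 25.4% showed the order of Myl2 and 26.4% that of Mb. Markers of some other cells also differed between the ages: the 4 Schwann cell genes summed to 163, 88.4 and 132 CPM at 28 months, against 285 CPM at 18 months, and all 4 were lower in every 28-month library (26.4% of all tested units were). The 5 macrophage genes summed to 58.4, 80.4 and 100.2 CPM at 28 months, against 35 CPM at 18 months, and all 5 were higher in every 28-month library (25.4% of all tested units were). The adipocyte genes summed to 4212, 4578 and 3617 CPM at 28 months, against 3217 CPM at 18 months, and 3 of the 5 tested were higher in every 28-month library. Sums of the fibroblast, endothelium and red cell genes overlapped between the ages. None of these genes passed the edgeR threshold, and the part of these cells in the mitochondrial share was not tested.

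**Figure D1:**
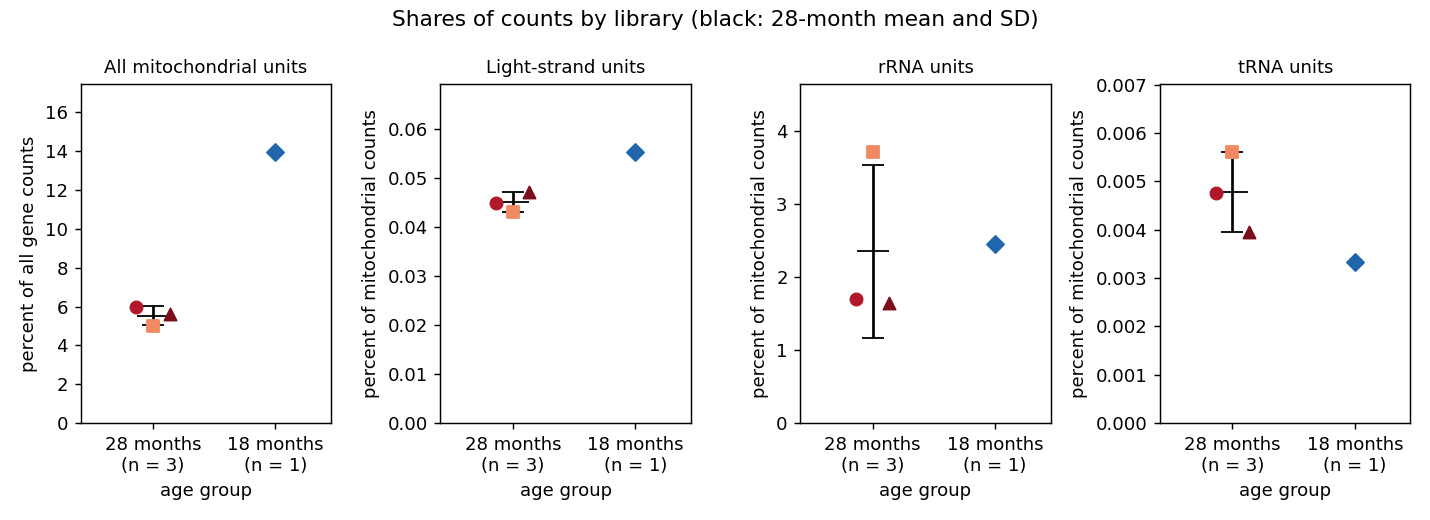
Each panel plots a percent on the y axis for each library, with 28 months (3 libraries, black bar for mean and SD) left of 18 months (1 library). The share of all mitochondrial units lies between 5.01 and 5.98% at 28 months and at 13.97% at 18 months, while the rRNA share overlaps between ages.

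Across genes, 15 of the 31 units averaged 10 counts or more and could be tested. All 15 had a negative log2 difference (28 months minus 18 months) in the edgeR quasi-likelihood fit with TMM scaling. Scaling to the mitochondrial mRNA sum instead, which removes the shift these units share by construction, left 7 of the 15 negative. With TMM the log2 differences of the 15 ran between -1.62 and -0.16 with a median of -1.33, against a median of 0.06 over the 15376 units tested. None passed a Benjamini-Hochberg adjusted p of 0.05 (adjusted p 0.86 to 0.984), and the background was 0% of units called in this fit. At an unadjusted edgeR p under 0.05 there were 5 of the 15, where 4.90% of all units met that mark. The 18-month library was above every 28-month library in 14 of the 15 units, whereas 26.4% of all tested units showed that order, and mt-Co2 was the 1 unit that overlapped. Units share a genome, precursor RNAs and the same 4 libraries, so these counts are not independent. All the residual spread came from the 28-month libraries, and the fit took the only 18-month library to have the same spread.

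The second 28-month library decided the calls. Without it, edgeR called 9 of the 15 units, all lower at 28 months, where 4.37% of units were called lower. These were mt-Rnr1, mt-Rnr2, mt-Nd1/mt-Ti, mt-Nd2/mt-Tw, mt-Co1, mt-Nd4l/mt-Nd4, mt-Nd5, mt-Nd6 and mt-Cytb, with log2 differences of -1.73 to -0.92 and adjusted p of 0.0142 to 0.0196. That fit rests on 2 libraries at 28 months. Leaving out the first or the third 28-month library called none of them. The DESeq2 Wald test on all 4 libraries called 1 mitochondrial unit, mt-Rnr2 (log2 difference -1.53, adjusted p = 0.008), where 0.221% of units were called.

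**Figure D2:**
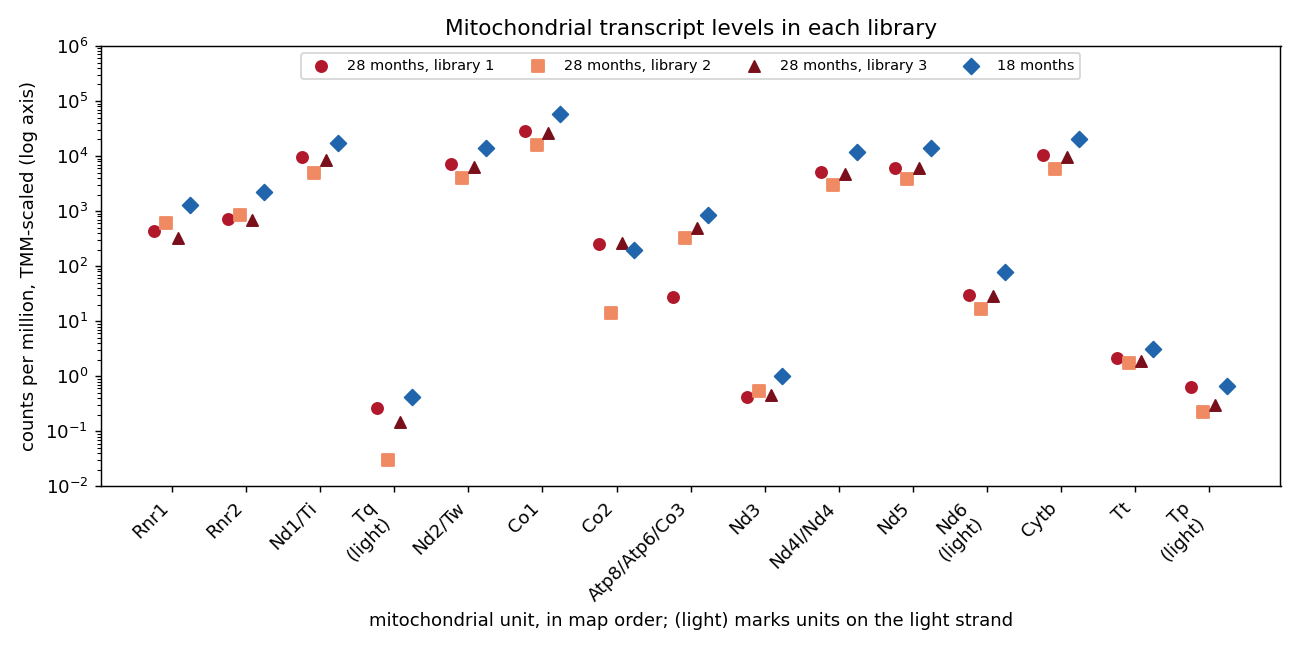
TMM-scaled CPM (y, log axis) of the 15 tested units in map order (x), with the 3 libraries at 28 months left of the 18-month library. The 18-month point is the highest for every unit except mt-Co2.

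**Figure D3:**
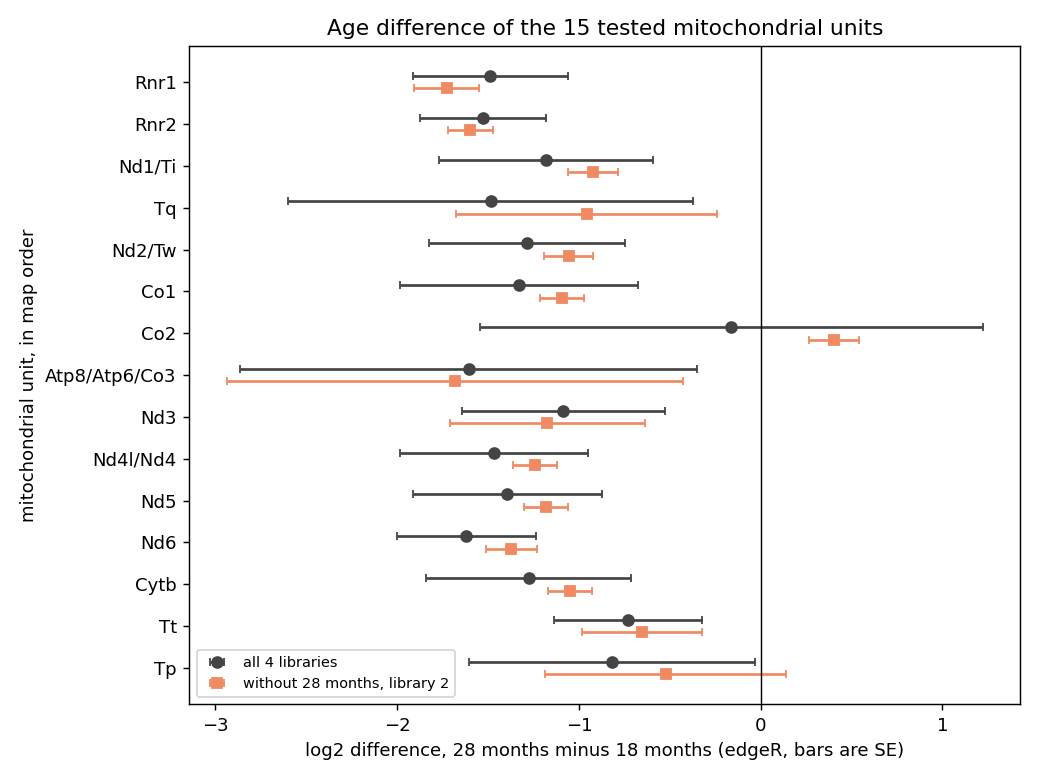
The log2 difference between 28 and 18 months (x, bars are SE of the edgeR fit) is plotted for each tested unit, with all 4 libraries and without the second 28-month library. All 15 points lie below 0 with all libraries under TMM scaling, and mt-Co2 turns to 0.40 without the second. Scaled to the mitochondrial mRNA sum (not plotted), which removes the shift these units share by construction, 7 of the 15 are negative.

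The 2 rRNAs of the mitochondrial ribosome both had lower levels than the abundant mRNAs. mt-Rnr1 (12S rRNA, chrM:70-1024) had 432.1, 600.1 and 323.3 CPM at 28 months against 1267 CPM at 18 months. mt-Rnr2 (16S rRNA, chrM:1094-2675) had 729, 853 and 702 CPM at 28 months against 2197 CPM at 18 months. All 28-month libraries lay below the 18-month library for both genes. The log2 difference in the edgeR fit was -1.49 ± 0.43 (SE) for mt-Rnr1 and -1.53 ± 0.35 for mt-Rnr2 (edgeR adjusted p = 0.86 for both). Per length the order of the genes was not the same in every library: mt-Rnr2 had 461, 539 and 444 CPM per kb and mt-Rnr1 453, 628 and 339 CPM per kb at 28 months. mt-Rnr2 averaged 481 ± 50.6 CPM per kb and mt-Rnr1 473 ± 146 CPM per kb at 28 months (SD, n = 3), and 1389 and 1326 CPM per kb were found at 18 months. Both are far below mt-Cytb, at 7468 ± 2047 CPM per kb at 28 months and 18103 CPM per kb at 18 months, although in cells rRNAs are usually the most abundant mitochondrial RNAs. How RNA was selected for these libraries is not given in the sources used here, and its part in these levels was not tested.

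As a share of mitochondrial counts the rRNAs did not separate the ages. They made up 1.70, 3.72 and 1.64% at 28 months and 2.45% at 18 months, so the second 28-month library was the highest and the other two the lowest. The 28-month mean of 2.36% ± 1.18 (SD, n = 3) differed from the 18-month value by -0.099 percentage points, less than the spread between libraries (exact two-sided permutation p = 1).

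Among complex I genes, mt-Nd1 and mt-Nd2 encode membrane subunits next to the quinone site and in the proton-pumping arm. The mt-Nd1/mt-Ti unit had 9777, 4881 and 8322 CPM at 28 months against 17389 CPM at 18 months, and the mt-Nd2/mt-Tw unit 7230, 4051 and 6276 CPM against 14245 CPM. Every 28-month library was below the 18-month library in both units. Their log2 differences were -1.18 ± 0.59 (edgeR adjusted p = 0.86) and -1.28 ± 0.54 (SE; edgeR adjusted p = 0.86).

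mt-Nd4 and mt-Nd5 encode the antiporter-like subunits at the far end of the complex I membrane arm. The mt-Nd4l/mt-Nd4 unit, nearly all of it from mt-Nd4, had 5102, 2967 and 4813 CPM at 28 months against 11888 CPM at 18 months, for a log2 difference of -1.47 ± 0.52 (edgeR adjusted p = 0.86). mt-Nd5 had 6150, 3808 and 6025 CPM at 28 months against 13992 CPM at 18 months, for a log2 difference of -1.39 ± 0.52 (edgeR adjusted p = 0.86). The second 28-month library was the lowest in both.

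mt-Nd6, the only mRNA gene of the light strand, encodes a small membrane subunit of complex I. It had 1977, 1608 and 1746 counts at 28 months, against 5000 counts at 18 months, or 29.6, 16.5 and 28.9 CPM against 76.8 CPM. The groups did not overlap, and its log2 difference of -1.62 ± 0.38 (SE; edgeR adjusted p = 0.86) was close to that of the mt-Atp8/mt-Atp6/mt-Co3 unit (-1.61 ± 1.26). Its base composition mirrors that of the heavy-strand mRNAs: mt-Nd6 has 28.1% G and 5.97% C, whereas the 12 heavy-strand mRNA genes have 5.88 to 16.1% G and 22.1 to 30% C.

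mt-Cytb encodes cytochrome b of complex III and mt-Co1 the catalytic subunit of complex IV. mt-Cytb had 10296, 5883 and 9451 CPM at 28 months against 20710 CPM at 18 months, for a log2 difference of -1.28 ± 0.56 (edgeR adjusted p = 0.86). mt-Co1 had 28123, 15657 and 25762 CPM at 28 months against 58295 CPM at 18 months, for a log2 difference of -1.33 ± 0.65 (edgeR adjusted p = 0.86). It was the most abundant mitochondrial mRNA per length in all 4 libraries. Its annotated nuclear copy Gm29216 took 0.54, 0.0228 and 0.0134% of the pair's counts at 28 months, against 0.0427% at 18 months.

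Within the mitochondrial RNA the abundant mRNAs took broadly similar shares in all 4 libraries. This was not so for mt-Co2, which made up 0.367, 0.0366 and 0.414% at 28 months and 0.138% at 18 months. Nor was it for the mt-Atp8/mt-Atp6/mt-Co3 unit, at 0.0405, 0.83 and 0.789% at 28 months and 0.608% at 18 months. mt-Co1 made up 41.3, 40.1 and 41.3% of mitochondrial counts at 28 months, against 41.3% at 18 months. mt-Cytb made up 15.1, 15.1 and 15.1% at 28 months and 14.7% at 18 months, and mt-Nd5 9.02, 9.75 and 9.65% against 9.92%. mt-Nd1/mt-Ti made up 14.35, 12.5 and 13.32% at 28 months and 12.32%, the lowest, at 18 months. mt-Nd4l/mt-Nd4 made up 7.486, 7.595 and 7.706% at 28 months and 8.424%, the highest, at 18 months. For mt-Nd2/mt-Tw the shares were 10.61, 10.37 and 10.05% at 28 months and 10.09% at 18 months. Setting library size to the mitochondrial mRNA sum removes the shift these units share by construction. The median log2 difference of the 15 units was then 0.00, and 7 of the 15 were negative. mt-Nd6 then had a log2 difference of -0.31 ± 0.38 (SE), mt-Nd1/mt-Ti 0.12 ± 0.16 and mt-Cytb 0.04 ± 0.15. No mitochondrial unit passed the threshold on this scale, and under it the median of all tested units moved to 1.47.

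The light strand gave under 0.1% of mitochondrial counts. Its share was 0.0449, 0.043 and 0.0472% at 28 months and 0.0554% at 18 months, where the exact 95% interval was 0.0539 to 0.0569%. The 28-month mean of 0.045% ± 0.00207 (SD, n = 3) was 0.813 times the 18-month value, and no 28-month library reached it (exact two-sided permutation p = 0.5, the smallest possible). The mt-Nd6 to mt-Cytb ratio had the same order, at 0.288, 0.28 and 0.306% at 28 months and 0.371% at 18 months. Among tRNA units alone the light-strand share overlapped, at 30.9, 14.5 and 21.5% at 28 months and 29% at 18 months. The 3′ ends of mt-Nd5 (chrM:11742-13565) and mt-Nd6 (chrM:13552-14070) overlap on opposite strands. The counting is not stated to use strand, so reads of mt-Nd6 and of the facing heavy-strand precursor cannot be told apart.

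The tRNA genes had few counts in these libraries. Of the 19 units that hold only tRNA genes, 11 had 0 counts in every library, which allows up to 3 counts in each, and 8 had counts. Summed, the tRNA-only units had 217, 214 and 149 counts at 28 months, against 307 counts at 18 months. Their share of mitochondrial counts was 0.00477, 0.00562 and 0.00395% at 28 months and 0.00334% at 18 months (0.00298 to 0.00374%, exact 95% interval), so here the 28-month libraries were all above the 18-month library (exact two-sided permutation p = 0.5). The sequences of the 3 tRNA-only units that averaged 10 counts or more, and of the 2 tRNA genes joined to an mRNA gene, are given whole.
mt-Tt, chrM:15289-15355: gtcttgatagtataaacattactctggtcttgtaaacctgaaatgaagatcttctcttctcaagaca
mt-Tp, chrM:15356-15422: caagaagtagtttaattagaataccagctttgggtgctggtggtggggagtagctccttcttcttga
mt-Tq, chrM:3772-3842: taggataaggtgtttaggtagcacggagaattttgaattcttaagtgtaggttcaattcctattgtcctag
mt-Ti, chrM:3706-3774: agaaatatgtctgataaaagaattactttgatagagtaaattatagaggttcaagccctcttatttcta
mt-Tw, chrM:4950-5016: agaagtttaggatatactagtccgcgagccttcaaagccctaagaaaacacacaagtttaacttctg

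mt-Tt, the threonine tRNA just after mt-Cytb, had 141, 172 and 112 counts at 28 months, against 206 counts at 18 months. On the CPM scale this was 2.11, 1.76 and 1.86 CPM against 3.16 CPM, with a log2 difference of -0.73 ± 0.41 (edgeR adjusted p = 0.86). The proline tRNA mt-Tp on the other strand had 42, 22 and 18 counts at 28 months, against 44 at 18 months, and the glutamine tRNA mt-Tq had 18, 3 and 9 against 27. Relative to mt-Cytb, mt-Tt stood at 0.0205, 0.03 and 0.0196% at 28 months and 0.0153% at 18 months. The 18-month library was thus the lowest on this ratio and the highest on the CPM scale.

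mt-Ts1 overlaps the end of mt-Co1 on the opposite strand and never exceeded 1 count in any library. The 2 tRNA genes that overlap an mRNA gene on the same strand had more counts. Those that only adjoin one had fewer: mt-Tl1, mt-Tg and mt-Tl2 were at 0 and mt-Tm, next to mt-Nd2, had 9, 11 and 5 counts at 28 months, against 12 at 18 months. They were not uniform, as mt-Tt, next to mt-Cytb, had 141, 172 and 112 counts at 28 months, against 206 at 18 months. The isoleucine tRNA mt-Ti, after mt-Nd1, had 757, 1000 and 596 counts in its own bin at 28 months and 1970 at 18 months, and the 2 bases that it shares with mt-Nd1 had 677, 751 and 532 counts against 1695. The tryptophan tRNA mt-Tw, after mt-Nd2, had 1331, 1158 and 1082 counts at 28 months, against 2407 at 18 months, and the 2 shared bases 1312, 950 and 987 against 2432. A fragment that spans several bins can count in each, so these are not separate fragments. The mt-Ti bin stood at 0.116, 0.211 and 0.119% of the mt-Nd1 bin at 28 months and at 0.175% at 18 months, which overlap. The mt-Tw bin stood at 0.277, 0.295 and 0.287% of the mt-Nd2 bin at 28 months and at 0.261% at 18 months, which do not overlap. The test of bin use within a unit (edgeR diffSpliceDGE) passed neither (log2 -0.34 for mt-Ti and 0.13 for mt-Tw, adjusted p = 1 for both).

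The genes with a near-full-length nuclear copy, mt-Atp8 and mt-Nd6 all had lower levels per length than the other mRNA genes. Per length, mt-Nd1, mt-Nd2, mt-Co1, mt-Nd4, mt-Nd5 and mt-Cytb lay between 2088 CPM per kb (mt-Nd5, second 28-month library) and 37732 CPM per kb (mt-Co1, 18 months). mt-Co2, the copper-binding subunit of complex IV, had 366, 20.9 and 378 CPM per kb at 28 months and 285 at 18 months. mt-Nd3, a small complex I subunit, had 1.21, 1.56 and 1.33 CPM per kb at 28 months and 2.91 at 18 months. mt-Nd6, which has no near-identical copy, had 57.0, 31.8 and 55.7 CPM per kb at 28 months and 148 at 18 months. mt-Nd6 is also the only light-strand mRNA gene, and the part of the copies in these levels was not tested. The highest of the 3 levels at 28 months exceeded the lowest 1.62 to 2.01 times in mt-Nd1, mt-Nd2, mt-Co1, mt-Nd4, mt-Nd5, mt-Nd6 and mt-Cytb, and 18.1 times in mt-Co2, 16.7 times in mt-Atp8, 9.94 times in mt-Atp6 and 40.8 times in mt-Co3. In mt-Nd3 and mt-Nd4l, which also have a near-full-length copy, it did so only 1.295 and 2.222 times.

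**Figure D4:**
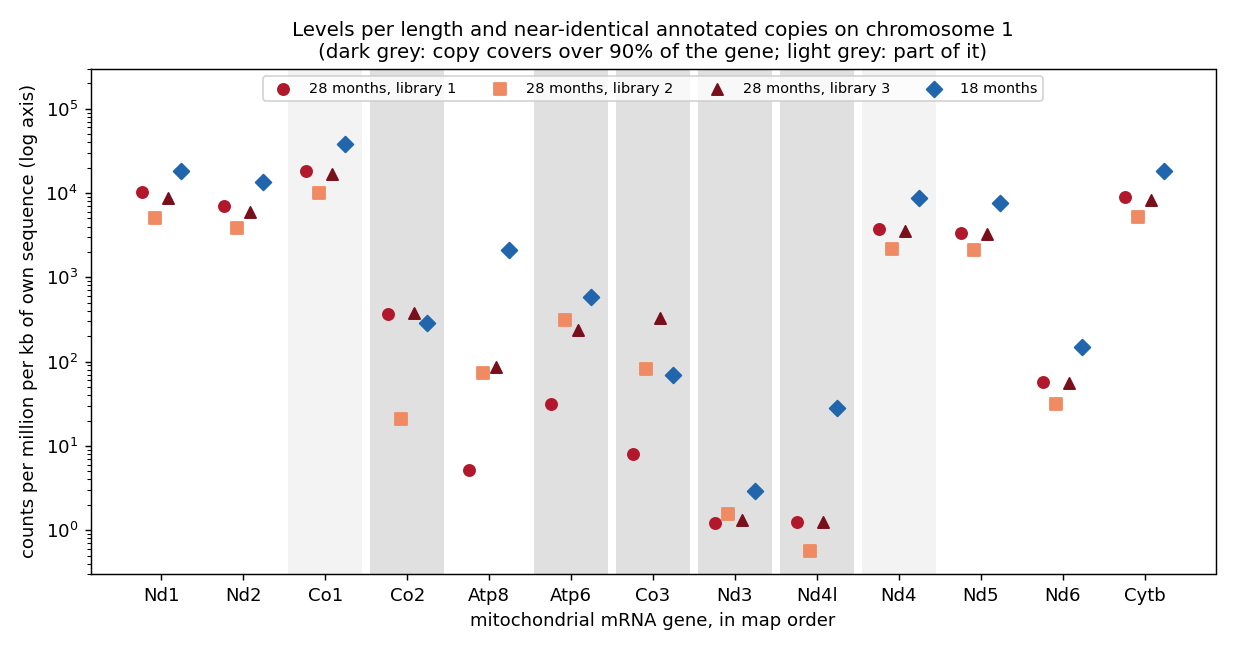
CPM per kb of own sequence (y, log axis) are plotted for the 13 mRNA genes in map order, with 28 months left of 18 months, over grey bands for genes with a near-identical annotated copy. The 5 genes in dark bands lie below mt-Nd5 in all libraries, as do mt-Atp8 and mt-Nd6, which have no near-identical annotated copy.

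For mt-Co2, mt-Atp6 and mt-Co3, the split of counts between gene and copy varied widely between libraries. For mt-Co2 the gene had 16719, 1393 and 15615 counts and Gm28661 had 9543, 15395 and 2743 counts at 28 months, against 12711 and 742 counts at 18 months. The copy thus took 36.3, 91.7 and 14.9% of the pair at 28 months and 5.52% at 18 months. For mt-Atp6, a proton-channel subunit of complex V, the gene bin had 1324, 19214 and 9151 counts and Gm10925 had 38841, 30945 and 4311 at 28 months, against 24173 and 945 at 18 months. There the copy took 96.7, 61.7 and 32.0% of the pair at 28 months and 3.76% at 18 months, so every 28-month library was above the 18-month library for both pairs.

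mt-Co3, a structural subunit of complex IV, showed another order. In counts, its bin had 417, 6263 and 15381 counts and Gm28437 had 2563, 40361 and 238 at 28 months, against 3585 and 5080 at 18 months, so the copy took 86.0, 86.6 and 1.52% of the pair at 28 months and 58.6% at 18 months. Added together, the copies had 61227, 87129 and 7604 counts at 28 months, against 9148 counts at 18 months. Adding each copy to its gene gave mitochondrial shares of 6.06, 5.13 and 5.62% at 28 months and 13.98% at 18 months. Values of mt-Co2, mt-Atp6, mt-Co3, mt-Nd3 and mt-Nd4l, and those of the copies, are therefore uncertain. The aligner's treatment of reads that match several places is not given in the sources used here, and its part in these counts was not tested.

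**Figure D5:**
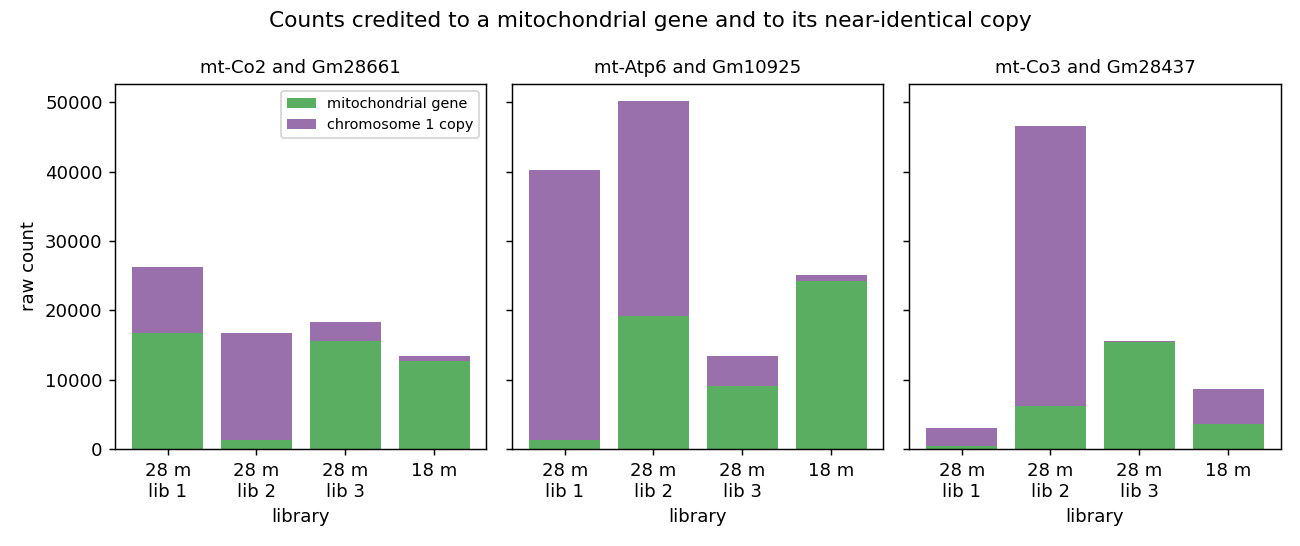
Stacked bars give the raw count (y) of a mitochondrial gene and of its chromosome 1 copy in each library (x), with 28 months left of 18 months. The copy takes 91.7% of the mt-Co2 pair in the second 28-month library and 1.52% of the mt-Co3 pair in the third.

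Without the 5 units that hold a gene with such a copy, 10 tested units remained, and their median log2 difference was -1.34. The 5 units that hold one had a median of -1.33. The mitochondrial share without them was 3.04, 2.58 and 2.79% at 28 months and 6.92% at 18 months. The 5 mRNA units with no near-identical copy (mt-Nd1/mt-Ti, mt-Nd2/mt-Tw, mt-Nd5, mt-Nd6 and mt-Cytb) had log2 differences of -1.62 to -1.18.

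At the level of bins, 25 of the 43 could be tested, in a fit with scaling factors of its own. None of the 25 passed an adjusted p of 0.05 (edgeR, background 0.000635% of 157387 bins called), 12 had an unadjusted p under 0.05 (12.2% of all bins did) and 24 had a negative log2 difference, with a median of -1.75 against 0.05 over all bins. On CPM scaled by the unit factors instead, the 18-month library was above all 28-month libraries in 23 of the 25, where 15.6% of bins showed that order. On that scale 74848 of the 157387 bins had the opposite order, and the median log2 difference of all bins was 0.41. The bin of mt-Co2 and that of mt-Co3 overlapped. Without the second 28-month library, 20 of the 25 passed, all lower at 28 months, where 12.0% of bins were called lower.

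The largest bin differences were in mt-Atp8 and mt-Nd4l. The bin of mt-Atp8, a small complex V subunit, had 56, 1160 and 846 counts at 28 months, against 22322 counts at 18 months, a log2 difference of -5.61 ± 1.20 (SE; edgeR adjusted p = 0.285). Set against the mt-Atp6 bin in the same unit it stood at 0.0423, 0.0604 and 0.0925 at 28 months and at 0.923 at 18 months. In the test of bin use within the unit this difference did not pass (log2 -3.66, edgeR diffSpliceDGE adjusted p = 1). The sequence between the annotated copies of mt-Co2 and mt-Atp6 was not used here, so whether mt-Atp8 has a copy there was not examined.

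The bin of mt-Nd4l, a small membrane subunit of complex I, had 24, 16 and 22 counts at 28 months, against 525 counts at 18 months. The mt-Nd4 bin in the same unit had 340722, 289328 and 290561 counts at 28 months, against 773631 at 18 months. mt-Nd4l thus stood at 0.00704, 0.00553 and 0.00757% of mt-Nd4 at 28 months and at 0.0679% at 18 months, and the groups did not overlap. It was the 1 bin of the 14 tested in joined units that passed the test of bin use (log2 -3.32, edgeR diffSpliceDGE adjusted p = 0.0114), where the background was 0.389% of 154780 bins. Without the first 28-month library its adjusted p was 0.339 (log2 -3.35), without the third 0.396 (log2 -3.41), and without the second 4.469e-05 (log2 -3.21). The copies of these genes, Gm28439 and Gm10222, form a unit that had 72, 68 and 92 counts at 28 months, against 746 counts at 18 months, so the mt-Nd4l bin and this joined unit were both highest at 18 months. Counts of Gm10222, the copy of mt-Nd4l, were not separated from those of Gm28439.

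Nuclear genes that maintain mitochondrial RNA and DNA were examined from a list of 58, of which 52 could be tested. None passed the threshold in the edgeR fit with all libraries, where 2 of the 52 had an unadjusted p under 0.05 (4.90% of all units did). Of the 52, 30 had a positive and 22 a negative log2 difference, with a median of 0.11 against 0.06 over all units. Named below are the 3 genes of each role with the smallest p, and none of these passed.

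Of 10 transcription genes, 6 had a negative log2 difference, with a median of -0.21. Tfb2m, which helps the mitochondrial RNA polymerase to open promoters, had 21.6, 13.9 and 19.6 CPM at 28 months, against 29.7 CPM at 18 months (log2 -0.69 ± 0.32, edgeR adjusted p = 0.86). Its relative Tfb1m, an rRNA dimethyltransferase, had 8.58, 10.2 and 8.61 CPM at 28 months, against 6.89 at 18 months (log2 0.40 ± 0.30, edgeR adjusted p = 0.864). Mterf1b, a termination factor gene, stayed under 1 CPM in all libraries (log2 -0.72 ± 0.62). The polymerase gene Polrmt had 20.5, 12.0 and 22.4 CPM at 28 months, against 13.2 at 18 months, and the packaging factor Tfam 60.1, 53.2 and 60.0 against 70.7 CPM, and both were chosen for mention after their values were seen.

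Of 11 tested genes of precursor processing and tRNA maturation, 8 had a positive log2 difference, with a median of 0.18. Trmt10c, a subunit of the RNase P that cuts the 5′ ends of tRNAs, had 10.9, 13.8 and 10.6 CPM at 28 months, against 16.2 at 18 months (log2 -0.46 ± 0.29). The tRNA thiolase gene Trmu (log2 0.57 ± 0.28) and Cdk5rap1, a tRNA methylthiotransferase gene (log2 0.44 ± 0.27), were above the 18-month library in all 28-month libraries. Over all tested units 25.4% showed that order.

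The 14 tested genes of mRNA stability, polyadenylation and decay had a median log2 difference of 0.12, 8 of them positive. Slirp, a partner of Lrpprc in protecting mitochondrial mRNAs, had 93.9, 80.7 and 70.4 CPM at 28 months, against 45 CPM at 18 months (log2 0.86 ± 0.31, edgeR adjusted p = 0.86). Pnpt1, the RNA-degrading polynucleotide phosphorylase, had 33.5, 47.5 and 36.6 CPM at 28 months, against 21.9 at 18 months (log2 0.84 ± 0.32, edgeR adjusted p = 0.86). Rexo2, an oligoribonuclease, had 83.0, 61.6 and 75.7 CPM at 28 months, against 48.5 at 18 months (log2 0.60 ± 0.31). All 3, which were picked for their small p, were above the 18-month library in every 28-month library, an order that 25.4% of all units showed. Over the 52 listed genes, 19 showed that order and 19 the opposite one. Without the second 28-month library, edgeR called 5 of the 52 listed genes, all higher at 28 months, where 7.52% of all units were called higher: Slirp (adjusted p = 0.0413), Pnpt1 (0.047), Rexo2 (0.0326), the RNase P subunit gene Hsd17b10 (0.0191) and the pseudouridine synthase family gene Rpusd3 (0.0411).

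The 8 tested rRNA modification genes had a median log2 difference of -0.37, with 5 negative. The rRNA methyltransferase genes Nsun4 (log2 -0.52 ± 0.25), Mrm1 (-0.67 ± 0.42) and Mrm3 (-0.43 ± 0.32) were below the 18-month library in all 28-month libraries. Over all tested units 26.4% showed that order. Among 9 DNA maintenance genes the median was 0.30, with 7 positive. Twnk, the mitochondrial DNA helicase, had 16.6, 11.6 and 14.6 CPM at 28 months, against 20.9 at 18 months (log2 -0.55 ± 0.30), and the single-stranded DNA binding gene Ssbp1 28.3, 27.9 and 23.1 against 18.9 CPM (log2 0.48 ± 0.27). Atad3a, a gene for a nucleoid-associated membrane ATPase, had a log2 difference of 0.47 ± 0.28.

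Nuclear genes for subunits of respiratory complexes I to V, a list made after the data were seen, differed from the 18-month level in both directions. Complex II, with 4 of the listed genes, has no subunit among the mitochondrial mRNAs. Of the 82 listed genes that could be tested, none passed in edgeR and 7 had an unadjusted p under 0.05, a mark that 4.90% of all units met. A positive log2 difference was found for 59 and a negative one for 23, with a median of 0.20. Their summed level was 31774, 22070 and 27494 CPM at 28 months, against 24605 CPM at 18 months, which overlap. For complex I the nuclear genes gave a sum of 9263, 6288 and 7803 CPM in the 28-month libraries and of 6325 CPM in the 18-month library, which overlap. The sums of complexes II, III and V overlapped as well. For complex IV every 28-month library was above the 18-month library, with sums of 4114, 3083 and 3494 CPM at 28 months, against 2586 CPM at 18 months. Within complex IV, 6 of the 17 tested genes were above the 18-month library in every 28-month library, as were 25.4% of all tested units. Another 3 had the opposite order, which 26.4% of all tested units showed. The difference between the nuclear subunit genes and the mitochondrial units was not itself tested.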

How the data were processed

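RNA-seq of thigh muscle gave 3 libraries at 28 months and 1 at 18 months, grouped by the source and age labels. The authors deposited raw counts per exonic bin, with no normalization. The submitters' processing notes name bcl2fastq 1.8.3, TopHat2 2.0.4 and the build GRCm38. The counter, annotation release, strand setting, RNA selection and handling of reads with several matches are not given in the sources used here. Special entries that name no gene equalled 3.43, 4.56 and 3.36% of all entries at 28 months and 5.20% at 18 months and were left out. If a fragment that spans several bins was counted in each, sums over bins count it more than once.

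Gene IDs were matched to symbols (40254 of 41388, or 97.3%). Positions and sequences came from GENCODE M21 transcripts on GRCm38, and nuclear copies from BLAST 2.17.0 over at least 100 aligned bases. No pair of libraries differed by less than sampling noise. Bins were summed per unit, units or bins averaging 10 counts or more were scaled by TMM, and 28 months was tested against 18 months with the edgeR 4.0.16 quasi-likelihood test (R 4.3.3) over all units or bins, at a Benjamini-Hochberg adjusted p under 0.05. Bin use was tested with diffSpliceDGE. Where the text gives an SE after ±, it is that of the edgeR fit. The fit had 2 residual degrees of freedom and 3.17 prior degrees of freedom. Its p-values set the difference between the ages against the spread between the 28-month libraries, which may be technical. Shares were compared with exact permutation tests, and their intervals are exact binomial ones. The steps were tested on simulated data with known changes.

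Any mitochondrial unit could be named. Of the nuclear list the 3 tested genes with the smallest p in each role were named, and the chromosome 1 copies were named. Polrmt, Tfam, Hsd17b10 and Rpusd3 were named outside this rule, after their values were seen. The members and lists were chosen with earlier results of these data known. Alternatives were DESeq2 1.42.0 size factors and Wald test, limma 3.58.1 voom, other scalings and count filters, other denominators, and leaving out each 28-month library. Adding the nuclear copies, leaving out the units that have one, and scaling bins by the unit factors were chosen after seeing the data.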

Additional observations from a re-analysis of the deposited data

How the results depend on the processing

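No paired analysis was possible because only 1 library was at hand at 18 months. Of 477 alternative values over 47 results, 424 kept their direction and their side of the threshold (for shares, which cannot reach it, their direction) and 20 turned in direction. Leaving out 1 library at 28 months gave 0 to 9 mitochondrial units called, 1 to 20 bins, 0 to 1 bin called for use and 0 to 5 nuclear genes, and differences in the rRNA share of -0.781 to 0.257 percentage points. It is the second 28-month library whose removal gave the high counts, and the cause was not tested. With it removed the mt-Co2 log2 difference was 0.40, and over all such removals it ran between -0.56 and 0.40. DESeq2's Wald test called 1 unit, and testing bins with no filter beyond a count above 0 called 2, those of mt-Atp8 and mt-Nd4l. Without the second library the whole table held 1799 called units, against 0 with it.

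Setting library size to the mitochondrial mRNA sum moved the median log2 difference of the mitochondrial units to 0.0036, by construction. On that scale the difference became 0.0036 for mt-Rnr1, 0.12 for mt-Nd1/mt-Ti, 0.034 for mt-Nd2/mt-Tw, 0.97 for mt-Co2, 0.35 for mt-Nd3, 0.0399 for mt-Cytb, 0.66 for mt-Tt, 0.46 for mt-Tp and 0.17 for the mt-Tw bin, and among nuclear genes 0.64 for Tfb2m, 0.66 for Mterf1b, 0.99 for Trmt10c, 0.87 for Nsun4, 0.80 for Mrm1, 0.93 for Mrm3 and 0.81 for Twnk. With the chromosome 1 copies added, mt-Co2 stood at 0.49. Scaling bins by the unit factors moved the median of mitochondrial bins to -1.39 and that of all bins to 0.41.

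With 1 library at 18 months, no spread was measured there, and permutation tests of shares could not pass 0.05. The tRNA units held at most 307 counts in a library, which limits the precision of their shares.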
